A study of Mus musculus with 8 samples.

Results

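Haemoglobin and erythroid haem genes were measured in whole mouse lungs, with 8 genes chosen by symbol: the alpha-globin genes Hba-a1 and Hba-a2, the beta-globin genes Hbb-bt and Hbb-bs, and Alas2, Slc4a1, Bpgm and Fech. All probes that the platform annotation assigns to one of these symbols were taken, which gave 8 of the 25697 probes on the array. They cover 6 of the 8 genes, because no probe carries the symbol Hba-a2 or Hbb-bs. The 5 tested lungs came from mice that had been mechanically ventilated, and the 3 control lungs came from mice that were not ventilated. All 8 mice were of the NOD/shi strain, an inbred line that descends from the non-obese diabetic mouse, and were 6 to 12 weeks old. No transgene or other agent is named for either group. The labels state neither ventilator settings and duration nor anaesthesia, nor whether the lungs were flushed of blood. Each lung was hybridised to 1 single-colour Illumina bead array.

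Red blood cells are filled with haemoglobin, a tetramer of alpha-type and beta-type globin chains that each hold a haem group. Erythroid precursors make haem from glycine and succinyl-CoA in a pathway that begins with ALAS2 and ends with ferrochelatase, the product of Fech. Circulating red cells have lost their nucleus, and it is the young ones, the reticulocytes, that still carry RNA, much of it globin mRNA. A lung removed whole contains the blood in its vessels, so these transcripts are commonly read as a measure of blood in a lung sample. In such a bulk sample fewer cells of a type and less RNA per cell cannot be told apart.

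The upstream sequence of the globin genes and of Alas2 is shown because it lets a reader compare the alpha-globin copies with each other, the beta-globin copies with each other, and both with the erythroid haem gene. These bases are not transcribed, so they do not show which transcript a probe binds. The 250 bases before the annotated start of each gene were read from RefSeq windows of the mouse build GRCm38.p6, on the gene's own strand, 5′ to 3′. Of the 8 genes, 6 were found in the window table. Capitals mark matches, on either strand, to 4 letter strings named for promoter elements. They are the CCAAT box, the CACCC box, the core of a GATA factor site, written GATAA, and a TATA box written ATATAA. The windows of Hba-a1 (chr11:32283422-32283671, plus strand), Hba-a2 (chr11:32296242-32296491, plus strand), Hbb-bt (chr7:103813924-103814173, minus strand), Hbb-bs (chr7:103827929-103828178, minus strand) and Alas2 (chrX:150547167-150547416, plus strand) read as follows.
Hba-a1: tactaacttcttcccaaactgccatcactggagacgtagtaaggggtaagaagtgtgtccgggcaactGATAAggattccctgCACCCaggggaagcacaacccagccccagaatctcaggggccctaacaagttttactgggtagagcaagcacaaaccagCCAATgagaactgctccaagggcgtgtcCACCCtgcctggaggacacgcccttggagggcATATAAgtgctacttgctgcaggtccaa
Hba-a2: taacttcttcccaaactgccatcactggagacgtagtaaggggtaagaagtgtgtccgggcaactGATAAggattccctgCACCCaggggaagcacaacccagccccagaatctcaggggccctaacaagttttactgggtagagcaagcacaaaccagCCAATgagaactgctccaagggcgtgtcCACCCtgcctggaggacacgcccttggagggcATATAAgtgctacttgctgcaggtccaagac
Hbb-bt: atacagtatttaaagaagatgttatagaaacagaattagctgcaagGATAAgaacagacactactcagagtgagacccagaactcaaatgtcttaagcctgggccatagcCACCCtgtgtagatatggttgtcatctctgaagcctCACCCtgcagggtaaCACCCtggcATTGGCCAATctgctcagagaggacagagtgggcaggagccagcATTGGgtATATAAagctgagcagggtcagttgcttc
Hbb-bs: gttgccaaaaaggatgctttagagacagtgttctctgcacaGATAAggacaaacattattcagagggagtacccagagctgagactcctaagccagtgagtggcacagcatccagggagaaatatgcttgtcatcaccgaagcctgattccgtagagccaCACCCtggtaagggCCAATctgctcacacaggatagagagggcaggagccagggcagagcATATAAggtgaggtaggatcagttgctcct
Alas2: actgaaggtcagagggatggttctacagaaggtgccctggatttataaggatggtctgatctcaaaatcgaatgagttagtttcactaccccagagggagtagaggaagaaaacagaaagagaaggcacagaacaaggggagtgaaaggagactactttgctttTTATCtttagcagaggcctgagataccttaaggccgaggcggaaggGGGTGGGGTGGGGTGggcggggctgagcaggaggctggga
All 4 globin windows shown hold the GATAA string once and the TATA string once, which begins 28 bases upstream of the start in Hba-a1, 31 in Hba-a2, 29 in Hbb-bt and 30 in Hbb-bs. CCAAT occurs once in Hba-a1, 88 bases upstream, once in Hba-a2, 91 bases upstream, and once in Hbb-bs, 76 bases upstream, but 3 times in Hbb-bt, with a pair that abuts without overlap 80 and 75 bases upstream. The CACCC string occurs 2 times each in Hba-a1 and Hba-a2, 3 times in Hbb-bt and once in Hbb-bs. Alas2, which encodes the erythroid form of the first enzyme of haem synthesis, has 3 abutting CACCC matches on the opposite strand, the farthest 40 bases upstream, and 1 GATAA on that strand. Its window holds neither a CCAAT box nor a TATA match. Bpgm, whose product makes the haemoglobin effector 2,3-bisphosphoglycerate, has 3 CCAAT matches and none of the other 3 strings. Of all 32851 windows of the same length, 33.8% hold the CCAAT string, 52.0% the CACCC string, 22.6% the GATAA string and 9.1% the ATATAA string. These matches are descriptions of letters, and binding was not measured.

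Over the full windows of 300 bases, which add 50 bases after the start, Hba-a1 and Hba-a2 share an unbroken identical run of 297 bases. The longest run that Hbb-bt and Hbb-bs share is 14 bases. The alpha-globin genes are known as near-identical copies, so the Hba-a1 probe may also bind Hba-a2 transcripts, and its value is reported as that of the alpha-globin pair's probe. Beta-globin copies go by different names in different mouse strains: Hbb-bs and Hbb-bt form 1 haplotype's adult pair, and Hbb-b1 and Hbb-b2 another's. Which haplotype the NOD/shi mice carry, and the probe sequences themselves, were not used here, so the assignment of a beta-globin probe to 1 copy is uncertain.

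Bright and dim arrays occurred in both groups. Mean probe intensity ran from 87.4 to 321 on the ventilated arrays and from 54.3 to 332 on the control arrays, and detected probes numbered 9765 to 13924 on the ventilated arrays and 8080 to 14313 on the controls. Control 2 was the dimmest of all. Control 1 carried skeletal muscle transcripts: the 5 tested muscle markers lay on average -1.08 to -0.78 log2 units from the control mean in ventilated lungs, against 2.43, -1.52 and -0.91 in controls 1 to 3. After background correction, quantile normalization and a detection filter, 13374 probes were tested with limma, and 216 passed a Benjamini-Hochberg adjusted p of 0.05, 132 higher and 84 lower in ventilated lungs. With arrays scaled to a common median the calls were 11 higher and 1 lower, and with the deposited mean-scaled values 7 higher and 0 lower. Each lung has its own number in the labels, which say no more of its origin, and the p-values measure the spread between these samples. The label of whole lung fitted the arrays, since 8 of the 10 alveolar epithelial markers and 8 of the 10 endothelial markers were detected and tested.

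Of the 8 member probes, 6 probes of 5 genes passed the detection filter, and 0 of these 6 passed the adjusted threshold, against 1.62% of all probes tested. All 6 had a higher mean in ventilated than in control lungs. For Hba-a1 a lower mean was not possible after quantile normalization, because it had the top rank on all 5 ventilated arrays. Of the other 5 probes, 2 belong to Fech. The unadjusted limma p was under 0.05 for 3 of the 6, all of them higher in ventilated lungs, where 8.01% of all tested probes met both conditions. In 2 of the 6 every ventilated array lay above every control array, which held for 6.12% of all tested probes. The median log2 fold change was 0.67 over the 6 member probes and 0.01 over all tested probes. Over all tested probes a higher mean was thus about as common as a lower one. Without control 2, 2 of the 6 had an unadjusted p under 0.05 and a higher mean (7% of all probes), and 3 had no overlap (10.5%). Without control 1 those counts were 2 (8.54%) and 2 (8.74%). These are small counts from 6 probes that share their lungs.

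**Figure D1:**
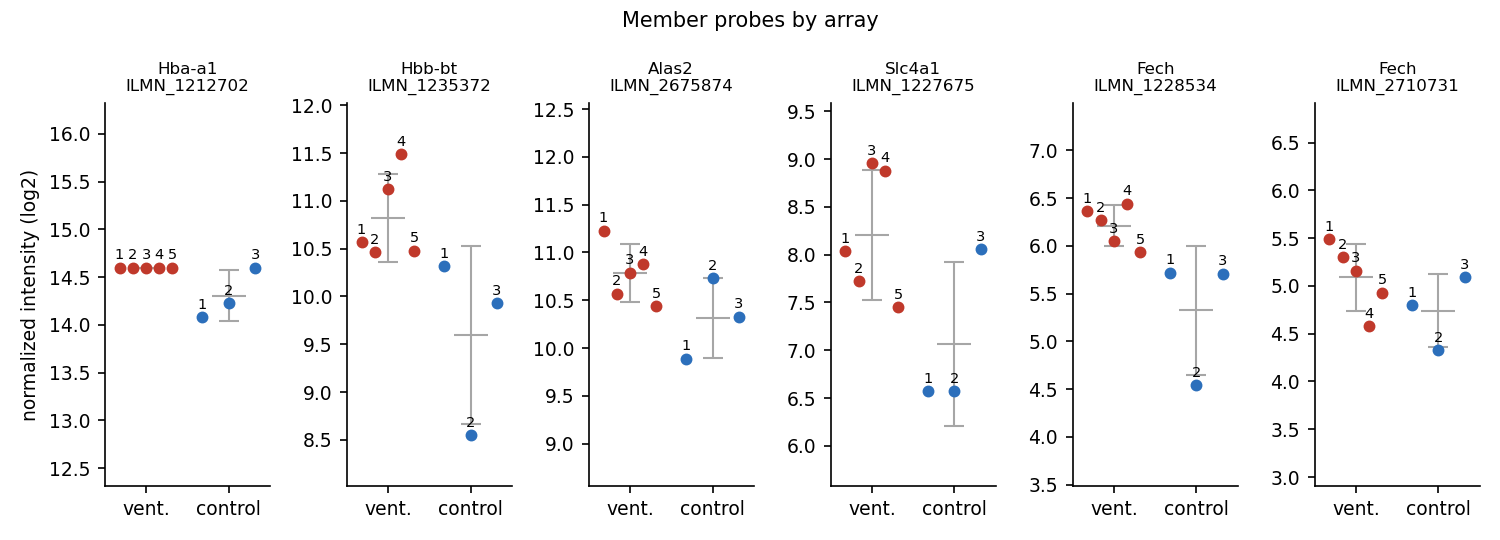
Normalized log2 intensity of the 6 member probes that passed the detection filter, with ventilated lungs (vent., red) left of control lungs (blue). Each point is 1 array with its number, and the grey bars are the mean and SD. Each panel spans 4 log2 units. Hba-a1 has 1 value, 14.60, on all ventilated arrays, and Hbb-bt and Fech (ILMN_1228534) have all 5 ventilated points above the control points.

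Hba-a1 encodes the alpha chain of adult haemoglobin. Its single probe, ILMN_1212702, had deposited intensities of 22980, 26032, 26741, 25932 and 28999 in ventilated lungs 1 to 5, against 24048, 12451 and 26857 in control lungs 1 to 3. Apart from control 2 these 7 values lie within 1.26-fold of each other, and with it within 2.33-fold, although the arrays' mean intensities differ several-fold. The probe had the highest intensity of the whole array on all 5 ventilated arrays and on control 3, the second highest on control 2 and the third highest on control 1. Quantile normalization gives the top-ranked probe of every array the same value, so the normalized log2 level was 14.60 on those 6 arrays by construction, and 14.08 and 14.23 on controls 1 and 2. The mean was 14.60 ± 0 in ventilated lungs and 14.30 ± 0.27 in control lungs (SD, n = 5 and 3). The log2 fold change of 0.30 (SE 0.20, 95% interval -0.15 to 0.75, limma adjusted p = 0.552) therefore rests on the ranks of controls 1 and 2. The deposited columns carry no flag for saturated probes, and whether the scanner's upper limit held this probe down was not tested.

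As a share of the summed intensity of its array, the Hba-a1 probe made up 0.832, 0.478, 0.828, 1.15 and 0.351% in ventilated lungs 1 to 5, against 0.282, 0.892 and 0.413% in control lungs 1 to 3. The groups overlap, and the share is high on the dim arrays and low on the bright ones of both groups. The direction of the normalized difference also depended on the method, since cyclic loess gave a log2 fold change of -0.51 (limma adjusted p = 0.791). The data thus give no settled direction for alpha-globin between the groups.

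**Figure D2:**
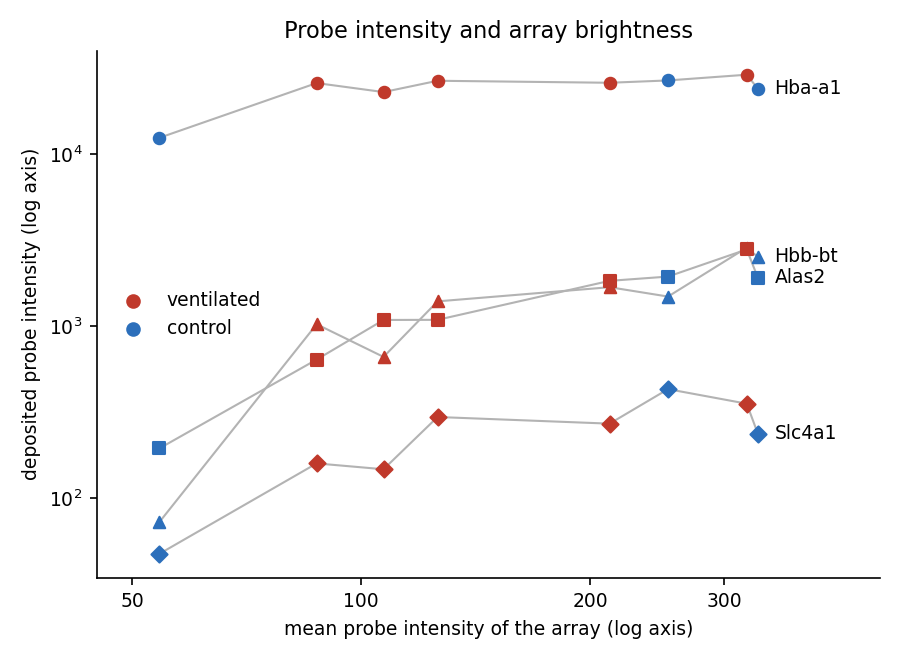
Deposited, not normalized intensity of 4 member probes (vertical log axis) against the mean probe intensity of the array (horizontal log axis), with ventilated arrays in red and control arrays in blue, 1 marker shape per gene. Hbb-bt, Alas2 and Slc4a1 are lowest on the dimmest array, control 2, and mostly higher on brighter arrays, whereas Hba-a1 stays between 22980 and 28999 on all arrays but control 2.

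Hbb-bt, an adult beta-globin gene, was read by the probe ILMN_1235372. Its normalized log2 levels were 10.57, 10.46, 11.12, 11.49 and 10.48 in ventilated lungs 1 to 5, against 10.32, 8.55 and 9.93 in control lungs 1 to 3. All ventilated values lay above all control values, ventilated lungs 3 and 4 were highest, and control 2 stood far below the rest. The means were 10.82 ± 0.46 in ventilated and 9.60 ± 0.93 in control lungs (SD, n = 5 and 3). This is a log2 difference of 1.22 (SE 0.40, 95% interval 0.33 to 2.12), or 2.33-fold, at an unadjusted limma p of 0.012 and an adjusted p of 0.181, which misses the threshold. Unlike the alpha-globin probe, it stood well below the top of the range on every array, ranking between 167 and 497 on ventilated arrays and between 563 and 2212 on controls.

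The size of the beta-globin difference depended on control 2. Without control 2 the log2 difference was 0.70 (limma adjusted p = 0.31). Among the brighter 4 arrays alone, ventilated 2 and 5 and controls 1 and 3, it was 0.34 (limma adjusted p = 0.518). Among the dimmer 4, ventilated 1, 3 and 4 and control 2, it was 2.51 (limma adjusted p = 0.0673), with the single control, control 2, assumed to vary like the other arrays. With the brighter and dimmer 4 as a block in the fit it was 1.27 (limma adjusted p = 0.149), about as large as without the block. The deposited intensity of this probe was 662, 1684, 1393, 1026 and 2861 in ventilated lungs, against 2526, 72.3 and 1486 in control lungs. Before normalization the groups therefore overlapped, and the only clearly low value was that of control 2.

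Alas2 encodes the erythroid 5-aminolevulinate synthase, the enzyme that sets the pace of haem synthesis in red cell precursors. Probe ILMN_2675874 had normalized log2 levels of 11.23, 10.57, 10.79, 10.88 and 10.44 in ventilated lungs 1 to 5, against 9.89, 10.73 and 10.33 in control lungs 1 to 3. The groups overlap through control 2, which lay above ventilated lungs 2 and 5. The means were 10.78 ± 0.30 in ventilated and 10.32 ± 0.42 in control lungs (SD, n = 5 and 3), a log2 difference of 0.47 (SE 0.27, 95% interval -0.12 to 1.05, limma adjusted p = 0.457). Here control 2, lowest for beta-globin, was the highest of the controls, so the member probes did not share 1 order of the control lungs. The difference was 0.40 among the brighter 4 arrays and 0.24 among the dimmer 4.

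Fech encodes ferrochelatase, the mitochondrial enzyme that inserts iron into protoporphyrin and is made in all cells that make haem. It has 3 probes, of which 2 were tested. Probe ILMN_1228534 read 6.36, 6.27, 6.05, 6.44 and 5.93 in ventilated lungs 1 to 5, against 5.72, 4.54 and 5.71 in control lungs 1 to 3, in normalized log2 units. It was detected on 5 of 5 ventilated and 2 of 3 control arrays, with control 2 below detection, and all ventilated values lay above the controls. The log2 difference was 0.88 (SE 0.30, 95% interval 0.22 to 1.55), 1.84-fold, with an unadjusted limma p of 0.0138 and an adjusted p of 0.192. Without control 2 it was 0.49, among the brighter 4 arrays 0.38 and among the dimmer 4 1.74.

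Probe ILMN_2710731 of the same gene read 5.49, 5.30, 5.16, 4.58 and 4.93 in ventilated lungs, against 4.80, 4.33 and 5.09 in controls. Those values overlap, and the log2 difference was 0.35 (SE 0.27, 95% interval -0.25 to 0.95, limma adjusted p = 0.605), smaller than that of the first probe but with an interval that overlaps its interval. It was detected on 4 of 5 ventilated and 2 of 3 control arrays, so it lay near background. The remaining probe, ILMN_1229519, was detected on none of the 8 arrays and was not tested; its detection p ran from 0.251 to 0.722 on ventilated arrays and from 0.352 to 0.805 on controls.

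Slc4a1 encodes band 3, the chloride-bicarbonate exchanger that is the most abundant protein of the red cell membrane. Probe ILMN_1227675 had normalized log2 levels of 8.04, 7.72, 8.96, 8.88 and 7.45 in ventilated lungs 1 to 5, against 6.57, 6.57 and 8.06 in control lungs 1 to 3. Controls 1 and 2 lay below every ventilated lung, and control 3 lay among them. The means were 8.21 ± 0.68 in ventilated and 7.07 ± 0.86 in control lungs (SD, n = 5 and 3). The log2 difference of 1.14 (SE 0.45, 95% interval 0.15 to 2.14), or 2.21-fold, had an unadjusted limma p of 0.0275 and an adjusted p of 0.264. Within the brighter 4 arrays it was 0.27 and within the dimmer 4 2.06, and it was 0.89 without control 2 and 1.64 without control 3. Ventilated lungs 3 and 4 were the highest here as for Hbb-bt.

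Bpgm encodes bisphosphoglycerate mutase, which in red cells makes the compound that lowers the oxygen affinity of haemoglobin. Its probe ILMN_2707588 was detected on 0 of 8 arrays, with detection p from 0.122 to 0.96 on ventilated and from 0.162 to 0.703 on control arrays. No difference was tested for it.

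The member probes were also summarised for each array, as the median over the 6 probes of the log2 distance from that probe's mean in controls. It was 0.94, 0.61, 0.60, 0.84 and 0.34 in ventilated lungs 1 to 5, against -0.08, -0.46 and 0.34 in control lungs 1 to 3. Ventilated lungs 1 and 4 were highest, and ventilated lung 5 equalled control 3, so the groups meet. Leaving out the Hba-a1 probe, whose normalized value is fixed by rank, gave 0.97, 0.66, 0.72, 1.12 and 0.38 in ventilated lungs and 0.06, -0.50 and 0.35 in controls. The order of the ventilated lungs differed between members: lung 1 was highest for Alas2, lung 3 for Slc4a1, and lung 4 for Hbb-bt and for Fech by its brighter probe. No test was made of the summary, since its members were chosen together.

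**Figure D3:**
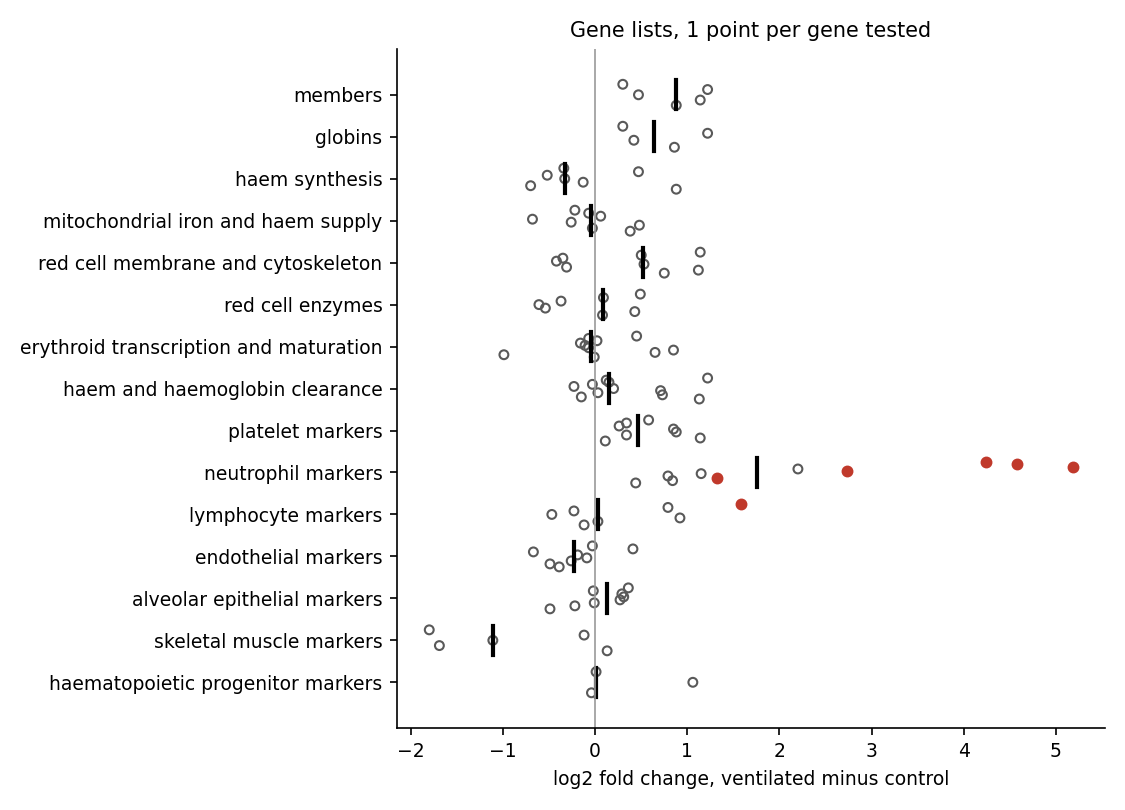
Log2 fold change, ventilated minus control, of each tested gene in the erythroid, haem, blood cell and lung lists, with 1 point per gene by its brightest kept probe and a bar at the list's median. Filled red points passed the adjusted threshold of 0.05: 5 neutrophil genes and 1 lymphocyte gene. No point of the members, globin, haem or red cell lists is filled.

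Of 12 listed globin genes 8 have a probe, 4 were tested, and 0 passed the threshold. The 4 are Hba-a1, Hbb-bt, Hbq1a and Hbb-b2, with a median log2 fold change of 0.64. Hbq1a, a theta-type globin gene, had log2 levels of 5.32 to 6.17 in ventilated lungs, against 4.66 to 5.12 in control lungs, without overlap, and a difference of 0.86 (SE 0.26, limma adjusted p = 0.137). Its signal was low, and control 2 was below detection. Hbb-b2, the minor adult beta-globin of the other haplotype, was between 4.27 and 5.70 in ventilated lungs and between 4.17 and 4.94 in controls, a difference of 0.42 (SE 0.35, limma adjusted p = 0.632). Its signal was also low, and it was below detection on ventilated 1 and control 2, the lowest array of each group. The embryonic genes Hba-x, Hbb-y and Hbb-bh1, and also Hbq1b, were detected on none of the arrays.

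Of 9 genes of haem synthesis, 7 were tested, and 0 passed the threshold in either direction, with a median of -0.33. Alas2 and Fech were the 2 with a higher mean in ventilated lungs, and the other 5 had a lower mean. Alas1, the form of the first enzyme used outside erythroid cells, differed by -0.34 (SE 0.32), and Alad, the second enzyme, by -0.52 (SE 0.27). Uros and Urod, which close and modify the tetrapyrrole ring, differed by -0.33 and -0.13. Uros lay near background, detected on 2 of 5 ventilated and 2 of 3 control arrays. Ppox, the enzyme before ferrochelatase, had 5.57 to 6.03 in ventilated lungs and 6.46 to 6.57 in control lungs, without overlap, and a difference of -0.70 (SE 0.21, limma adjusted p = 0.142). None of the 7 passed, and the difference between Alas2 and Fech and the other 5 genes was not tested. Cpox was detected on no array.

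Among 12 genes of mitochondrial iron and haem supply, 8 were tested, 0 passed, and the median was -0.05. Tfrc, the transferrin receptor that brings iron into cells, differed by -0.68 (SE 0.27, limma adjusted p = 0.259), and Glrx5, which acts in iron-sulphur cluster assembly, by 0.48 (SE 0.26, limma adjusted p = 0.435). Of 19 genes of the red cell membrane and cytoskeleton, 8 were tested, 0 passed, and the median was 0.51. The smallest p-values besides Slc4a1 belonged to Slc2a1 and Aqp1. Slc2a1, which encodes a glucose transporter of many cell types and is not specific to red cells, differed by 1.12 (SE 0.28, limma adjusted p = 0.0861). Aqp1, a water channel gene that lung endothelium also expresses, differed by 0.75 (SE 0.29, limma adjusted p = 0.266). In this list 5 genes had a higher and 3 a lower mean in ventilated lungs. The lower ones were Ank1 at -0.35, Dmtn at -0.42 and Xk at -0.31. Ank1 was detected on 3 of 5 ventilated and 2 of 3 control arrays. Xk was detected on 1 of 5 and 2 of 3, so both lay near background. Rhag, Rhd, Kel, Ermap and Cldn13, whose products are more restricted to erythroid cells, were not kept by the detection filter. The list of red cell enzymes had 7 of 11 tested, 0 passing and a median of 0.08, with 4 genes higher and 3 lower in ventilated lungs. The 2 with the smallest p were Gpx1 at -0.54 and Cat at -0.61, both enzymes that remove peroxide. The largest higher value was 0.49, for Car2.

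Genes of erythroid transcription and maturation had 10 of 20 tested, 0 passing and a median of -0.04. Gata1 and Klf1, the defining erythroid transcription factors, were not kept by the filter. Lmo2, a partner of the erythroid GATA complex that endothelium also expresses, differed by -0.99 (SE 0.25, limma adjusted p = 0.0869), with every ventilated value below every control value. Zfpm1, which encodes the GATA cofactor FOG-1, differed by 0.65 (SE 0.34, limma adjusted p = 0.417). Of 7 progenitor markers 3 were tested and 0 passed. Cd34, which endothelium also carries, differed by 1.06 (SE 0.44, limma adjusted p = 0.286), and the proliferation gene Top2a by -0.04. Cd34 was below detection on control 2, at 4.22. It read 6.17 and 6.34 in controls 1 and 3, against 6.19 to 6.99 in ventilated lungs.

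Genes that clear haem and haemoglobin had 11 of 12 tested, 0 passing and a median of 0.15. Hmox1, which encodes the haem-degrading enzyme haem oxygenase-1, had log2 levels of 7.37, 6.58, 7.30, 6.35 and 5.80 in ventilated lungs 1 to 5, against 5.00, 5.80 and 5.58 in control lungs 1 to 3. Ventilated lungs 1 to 4 lay above all controls, and ventilated lung 5 met control 2. The difference was 1.22 (SE 0.37, limma adjusted p = 0.15). Bach1, the haem-binding repressor of Hmox1, had 6.42 to 7.56 in ventilated lungs and 5.71 to 5.99 in control lungs, without overlap, a difference of 1.13 (SE 0.28, limma adjusted p = 0.0803). Haptoglobin and haemopexin, the plasma proteins that bind free haemoglobin and haem, differed by -0.03 and -0.23 in their transcripts Hp and Hpx. At an unadjusted limma p under 0.05 in either direction, where 15% of all tested probes stood, were 2 of the 4 globins, 2 of the 7 haem synthesis genes, 1 of the 8 iron and haem supply genes, 3 of the 8 membrane genes, 1 of the 7 enzymes, 1 of the 10 transcription and maturation genes and 3 of the 11 clearance genes.

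Neutrophil markers were higher in the same ventilated lungs. All 10 tested neutrophil markers, of 14 listed, had a higher mean in ventilated lungs, with a median of 1.76. Past the threshold 5 rose, where 1.62% of all tested probes passed in either direction. Ngp, Camp and Cxcr2 were detected on no control array and passed the detection filter only through ventilated lungs. Their higher means were thus favoured by the filter, and Camp is among the 5 that rose. Over the 10 tested markers the mean deviation from the control mean was 1.89 to 3.24 in ventilated lungs and -0.12 to 0.14 in controls. Retnlg, a granulocyte gene, rose by 5.18 on the log2 scale (SE 0.40, limma adjusted p = 0.000413), and S100a8, a calcium-binding protein gene of neutrophils, rose by 4.24 (SE 0.34, limma adjusted p = 0.000413). Without control 2 also 5 neutrophil markers passed, and without control 1, 3 did. Over all 13374 tested probes 192 passed without control 2 and 93 without control 1, against 216 with all arrays.

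Platelets, like red cells, circulate without a nucleus. All 8 tested platelet markers, of 12 listed, had a higher mean in ventilated lungs, 6 of the 8 without control 2, and 0 passed, with a median of 0.46. Their mean deviation was 0.80, 0.51, 0.57, 0.65 and 0.28 in ventilated lungs 1 to 5, against 0.24, -0.16 and -0.08 in control lungs 1 to 3. Treml1 and Gp5, both platelet receptor genes, differed by 1.14 and 0.88 (limma adjusted p = 0.191 each). Both were below detection on control 2, which read 4.78 for Treml1 and 5.36 for Gp5. Controls 1 and 3 read 6.18 and 6.47 for Treml1 and 6.42 each for Gp5, against a ventilated mean of 6.95 for either gene. Among ventilated lungs the platelet values were highest in lung 1 and lowest in lung 5, as was the members' median. Without Hba-a1 the members' median was highest in ventilated lung 4 (1.12) instead. The order of the controls differed, with platelet values highest in control 1 (0.24) and the members' median highest in control 3 (0.34).

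Of 12 lymphocyte markers 7 were tested, 1 rose and 0 fell, with a median of 0.03. Of these 7, 4 had a higher and 3 a lower mean in ventilated lungs. Cd3d, a part of the T cell receptor complex, rose by 1.58 (SE 0.29, limma adjusted p = 0.0263). Cd3e of the same complex differed by 0.79 (limma adjusted p = 0.29), and Cd3g, also of that complex, by -0.23 (limma adjusted p = 0.802). Cd3d, Cd3e and Cd3g were each below detection on control 2. Endothelial markers had 8 of 10 tested and 0 passing, with a median of -0.23, and their mean deviation was -0.52 to 0.05 in ventilated lungs and -0.22 to 0.30 in controls. Tek, an endothelial receptor gene, and Ramp2, which encodes an accessory protein of a receptor, differed by -0.67 and -0.49 (limma adjusted p = 0.212 and 0.287). Alveolar epithelial markers had 0 of 8 passing and a median of 0.13, with Pdpn of type I cells at -0.49 and Sftpd of type II cells at 0.31. Skeletal muscle markers had 0 of 5 passing and a median of -1.11, set by control 1, where Tnnt3 and Tnni2 read 7.53 and 9.70 against at most 4.81 and 5.53 on any other array. The part of these other cells in the member probes' differences was not tested.

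The named probes whose profile over the 8 arrays, centred on its own mean, lay closest to each of 3 member probes were also listed, with the mean absolute log2 difference as the measure. For Hba-a1 the closest 5 were Tbl2, H2al2a, Ube2f, Maf1 and Zfp292, at 0.061 to 0.077; since that probe's profile is set by its rank, this list carries no information about alpha-globin. For Alas2 they were Pla2g1b, Ovol1, Ahcyl2, Selenos and Prkag1, at 0.091 to 0.104. For Hbb-bt, a list added after its values were seen, they were Arrdc2, Mrps28, Psmb5, Gsta2 and Fcho1, at 0.132 to 0.212. None of these 15 genes passed the adjusted threshold.

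**Figure D4:**
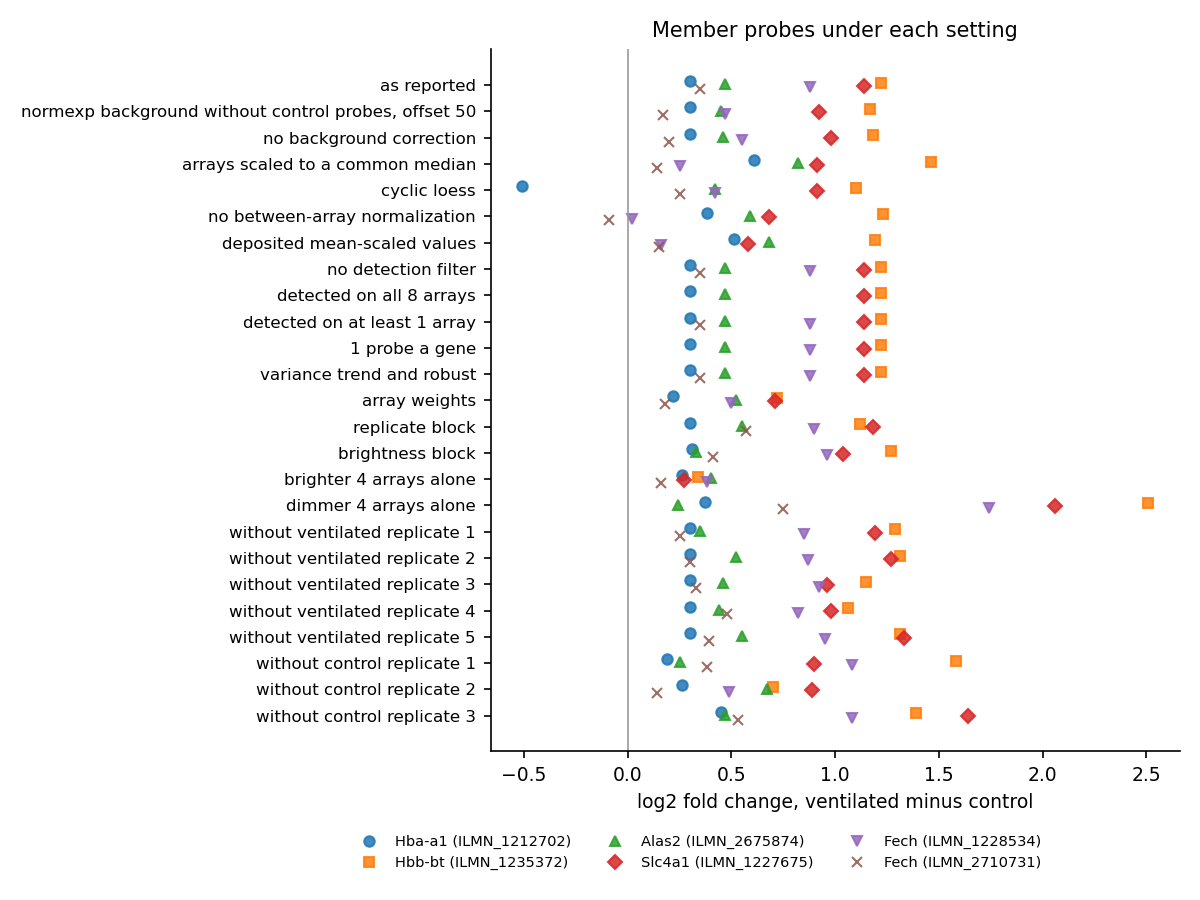
Log2 fold change, ventilated minus control, of the 6 member probes as reported and under 24 other settings, with 1 marker per probe. Hbb-bt runs from 0.34 in the brighter 4 arrays to 2.51 in the dimmer 4, and Hba-a1 reaches -0.51 under cyclic loess. Fech (ILMN_2710731) is -0.09 with no between-array normalization, and the other 4 probes stay above 0 under every setting drawn. Among these 4 the lowest value is 0.02, for Fech (ILMN_1228534) with no between-array normalization.

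Across the settings drawn in the plot of settings, 0 member probes passed the threshold under each of 16 other processing choices and each of 8 fits that left out 1 array. Hbb-bt, Alas2, Slc4a1 and the brighter Fech probe kept a higher mean in ventilated lungs under all those that tested them. For the brighter Fech probe the log2 difference fell to 0.02 with no between-array normalization, which is close to none. It was 0.16 with the deposited mean-scaled values. The lowest limma adjusted p that any of the 16 gave was 0.0673 for Hbb-bt, 0.0835 for Slc4a1, 0.0746 for the brighter Fech probe, 0.139 for Alas2 and 0.344 for Hba-a1. Each of the lowest 3 came from the dimmer 4 arrays, where control 2 was the only control.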

How the data were processed

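Total RNA of 8 whole lungs was amplified to biotin-labelled cRNA and read on Illumina bead arrays, 1 lung per array, per the labels' protocols. Scanner and software: not given in the sources used here. Linear, non-normalized intensities per probe were deposited by the authors, per the file headers, which also give each intensity's detection p-value. Also deposited was a table of the same intensities scaled by 1 factor per array to equal means (1 probe value was off its factor). That table is linear and not centred, and its medians were 70.2, 42.5, 61.5, 82.5 and 30.9 on ventilated arrays 1 to 5 and 31.7, 116 and 34.3 on controls 1 to 3.

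In R 4.3.3 with limma 3.58.1, neqc corrected the background (with negative controls that it derives from detection p-values, offset 16), quantile normalized and took log2. A probe was kept if its detection p was under 0.05 on 3 or more of the 8 arrays. Each probe was tested alone with lmFit and eBayes, two-sided, ventilated minus control, with Benjamini-Hochberg adjustment over all 13374 kept probes. The fit was tested on simulated data. In gene lists a gene is its brightest kept probe.

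Of 25697 probes 23978 had 1 symbol in the platform annotation, 0 several and 1719 none; RefSeq's gene table held 23962 of the named probes' symbols and changed 0. Promoter windows are RefSeq's. Figures used Python 3.11.15 and matplotlib 3.10.9.

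The members, lists and tests were chosen with earlier results of these data known. Named genes are all member probes, the 2 other genes with the smallest p in each of the 14 lists, all other tested globins and haem synthesis genes, and the 5 probes closest in profile to Hba-a1 and to Alas2; other genes given with a value or as undetected were chosen after their values were seen. Alternatives changed the background correction, normalization, filter, probe choice, variance model, array weights, blocks and arrays used. Replicate numbers were not taken as pairs, since the labels do not state that they pair the lungs. Leaving out controls 1 and 2 for the member counts was added after the data were seen.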

Additional observations from a re-analysis of the deposited data

How the results depend on the processing

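Member probes past the threshold numbered 0 under all 24 alternatives. Over all tested probes the 216 calls became 12 with arrays scaled to a common median, 332 with cyclic loess, 0 with no between-array normalization (limma; 44 at unadjusted p under 0.05, with the median of all probes at -0.24), 7 with the deposited mean-scaled values, 1025 with array weights, 345 with array brightness as a block, 16 in the brighter 4 arrays and 3 in the dimmer 4. Leaving out 1 array gave 47 to 192 calls, the fewest without control 3. With the replicate number as a block, 2 probes passed. The deviations of same-numbered lungs from their group means correlated at -0.37, -0.35 and 0.35. With so few control lungs these values cannot decide whether the lungs were paired. The labels name no pairs, so the numbers were not taken as pairs.

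The median log2 fold change of the haemoglobin probes was 0.76. It covers only 2 probes, Hba-a1 and Hbb-bt, and the Hba-a1 value is set by rank under quantile normalization. This median was 0.29 under cyclic loess, 0.30 in the brighter 4 arrays and 1.44 in the dimmer 4, and 0.48 without control 2. That of all member probes (0.67) was 0.31 in the brighter 4 and 1.25 in the dimmer 4. Hba-a1 turned to -0.51 under cyclic loess, and Fech (ILMN_2710731) to -0.09 with no between-array normalization. The cause of these changes was not tested. Signal over background limits Bpgm and 1 Fech probe, which were never detected, and array ranks limit Hba-a1; 3 controls limit all comparisons.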
